A study of Homo sapiens with 4 samples.

Results

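The neuropilins NRP1 and NRP2, the plexins PLXNA1, PLXNA3, PLXNB2, PLXNC1 and PLXND1, and the semaphorins SEMA4A and SEMA4D were followed in THP-1 cells treated with antisense oligonucleotides, synthetic strands that pair with a chosen RNA and lower its level. These 9 genes were picked by symbol from a table of 27106 genes, with their knockdown and control values already known. Their changes are therefore given as a description, and calls of these genes are not read as tests. RNA sequencing of total RNA covered 2 libraries with an oligonucleotide against the long noncoding RNA SGOL1-AS1 (the knockdown libraries) and 2 libraries with a non-targeting oligonucleotide, all at day 5. Every library came from THP-1, an established monocytic line derived from human leukaemia. The knockdown columns carry a code that no label explains and were assigned by elimination, so each direction rests on that assignment.

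Depth was 48558537 and 41435922 gene reads in the knockdown libraries and 50855150 and 51851314 in the non-targeting ones. The target RNA had 12 and 17 reads in the knockdown libraries and 24 and 21 in the non-targeting libraries, too few to check the labels, and no second oligonucleotide against it was included. Monocytic identity was seen in LYZ, the lysozyme gene, at 39733 and 40116 normalized reads in the knockdown libraries and 37332 and 36975 in the non-targeting libraries. Most of the 12 monocyte genes lay the other way: 9 had a log2 fold change below 0, with a median of -0.12 (-0.04 after correction for GC content and length), against -0.01 over all tested genes. Limma called 2 of the 12 lower (16.7%, against 3.4% of all tested genes), FCGR1A and CD4, and 1 higher (8.33%, against 0.851%), S100A9. Some of these 9 genes are also used by vessel lining cells, neurons or plasmacytoid dendritic cells. KDR, an endothelial receptor named after its values were seen, had 3.84 and 2.28 normalized reads in the knockdown libraries and 11.5 and 3.76 in the non-targeting libraries, and the neuronal genes on the list summed to 141 and 133 in the knockdown libraries and 159 and 135 in the non-targeting ones. PECAM1, on the endothelial list but also a monocyte surface protein, had 16527 and 18638 normalized reads in the knockdown libraries and 21639 and 21942 in the non-targeting libraries (log2 fold change by limma -0.31, adjusted p = 0.00104). The 6 endothelial genes in the table, of 8 listed, summed to 16620 and 18742 normalized reads in the knockdown libraries. In the non-targeting libraries they summed to 21749 and 22067, and most of each sum was PECAM1. All 4 tested had a log2 fold change below 0. Their median was -0.25, and -0.19 after correction for GC content and length. KDR alone therefore does not describe this list. The 4 plasmacytoid dendritic cell genes in the table summed to 2887 and 3135 in the knockdown and 2915 and 3117 in the non-targeting libraries. The most abundant of them was TCF4, and the other 3 of the 7 listed, IL3RA, LILRA4 and TCL1A, were not in the table. Whether other cell types had a part in the values below was not tested.

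Semaphorins are secreted or membrane-bound guidance proteins first known from growing axons. Plexins are their main receptors and carry an intracellular domain that switches off small Ras-family GTPases. Neuropilins lack a large signalling domain of their own, hold plexins and secreted class 3 semaphorins together, and also bind forms of vascular endothelial growth factor (VEGF). In the immune system the membrane-bound class 4 semaphorins act between monocytes, dendritic cells and lymphocytes, and plexins steer myeloid cell movement.

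Values are normalized reads, read counts divided by 1 size factor per library. Levels of different genes are compared as normalized reads per kilobase of annotated exonic length. That length merges the exons of all annotated transcripts of a gene, so comparisons between genes on this scale depend on the annotation. On that scale the plexin PLXNB2 stood highest, at 1690.2 in the knockdown and 1933 in the non-targeting libraries (means, n = 2 each). The ligand SEMA4A followed, at 596 in the knockdown and 704 in the non-targeting libraries, and PLXND1 at 452 and 506 in the same order of groups. PLXNC1 stood at 274 in the knockdown and 261 in the non-targeting libraries, SEMA4D at 234 and 239.9, and PLXNA1 at 201 and 237. The co-receptor NRP1 was much lower, at 55.9 per kilobase in the knockdown and 51.3 in the non-targeting libraries, close to PLXNA3 at 45.4 and 44.9. NRP2 was the lowest, at 5.98 per kilobase in the knockdown and 12.4 in the non-targeting libraries. The order was the same in both groups. SEMA4D and PLXNA1 overlapped in the non-targeting libraries and NRP1 and PLXNA3 in the knockdown libraries, while all other neighbours in the order were apart in both groups. Measured by its mean over all libraries, PLXNB2 lay at percentile 96.8 of the 19398 genes tested and NRP2 at percentile 38.5.

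**Figure D1:**
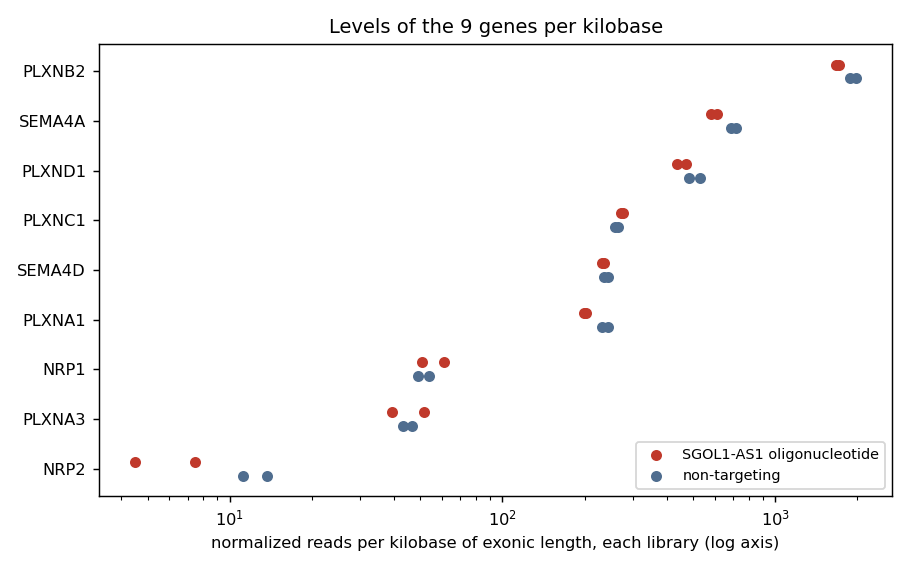
Normalized reads per kilobase of exonic length of each of the 9 genes in each library, on a log axis, with knockdown libraries in red and non-targeting libraries in blue. PLXNB2 stands highest in both groups and NRP2 lowest, at 5.98 in the knockdown and 12.4 in the non-targeting libraries.

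Among the 9 plexin genes in the table, PLXNB2 made up 61.3% and 62.0% of the summed level per kilobase in the knockdown libraries and 63.2% and 63.3% in the non-targeting libraries. PLXNC1 made up 9.75% and 10.3% in the knockdown libraries and 8.20% and 8.91% in the non-targeting libraries. These shares are formed within a library and do not depend on the scaling between libraries. The share of PLXNB2 was lower and that of PLXNC1 higher in both knockdown libraries, with no overlap between the groups. PLXNB2 has a GC content of 63.1% and PLXNC1 of 46.9%, and the gap between them was smaller after correction for it. The log2 fold changes were -0.19 for PLXNB2 and 0.07 for PLXNC1 as fitted, and -0.06 and 0.07 once GC content and length were corrected. PLXNB1, the most abundant plexin outside the 9 genes, held 2.66% and 2.24% in the knockdown libraries and 2.13% and 2.05% in the non-targeting libraries.

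Of the co-receptors, NRP2 was lower in the knockdown, while the groups overlapped for NRP1. NRP2 (ENSG00000118257, plus strand of chromosome 2, 205681990 to 205798133, GRCh38) binds class 3 semaphorins and the lymphatic growth factor VEGFC. It had 62.3 and 104 normalized reads in the knockdown libraries, against 156 and 190.0 in the non-targeting libraries. Both knockdown values lay below both non-targeting values, and the knockdown libraries also differed between themselves. The means were 83.1 ± 29.3 in the knockdown and 173 ± 24.4 in the non-targeting libraries (SD, n = 2 each), a log2 fold change of -1.09 ± 0.20 (SE). These values rest on 65 and 91 reads in the knockdown libraries, with exact 95% Poisson intervals of 50.2 to 82.8 and 73.3 to 112, and on 162 and 202 reads in the non-targeting libraries, with intervals of 138 to 189 and 175 to 232. The intervals cover counting error only. The SE of the fit draws its variance in part from other genes. For NRP2 it was 0.30 with no mean-variance trend and 0.27 by DESeq2. The log2 fold change of NRP2 was -0.72 without knockdown library 1 and -1.45 without knockdown library 2. It stayed below 0 in all 17 alternative settings, but many of them could not turn its sign. Other filters and empirical Bayes settings leave the fold change as it is. Leaving out 1 library cannot turn it where the groups do not overlap. In bulk RNA, fewer cells with a transcript and less of it per cell cannot be told apart.

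NRP1 (ENSG00000099250, minus strand of chromosome 10, 33177492 to 33336262), the receptor partner of SEMA3A and VEGFA, had 586 and 703 normalized reads in the knockdown libraries and 563 and 620.0 in the non-targeting libraries. The groups overlapped. The means were 644 ± 82.4 in the knockdown and 591 ± 40.5 in the non-targeting libraries (SD, n = 2 each), a log2 fold change of 0.12 ± 0.09 (SE), and the sign turned without knockdown library 2 (-0.012). NRP1 exceeded NRP2 per kilobase 11.3 and 8.16 times in the knockdown libraries, and 4.36 and 3.93 times in the non-targeting libraries. This ratio, formed within each library, was higher in both knockdown libraries. The annotation places an antisense gene on 147 exonic bases of NRP2 and another on 561 exonic bases of NRP1; neither was analysed here, and whether counting used strand is not given in the sources used here.

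**Figure D2:**
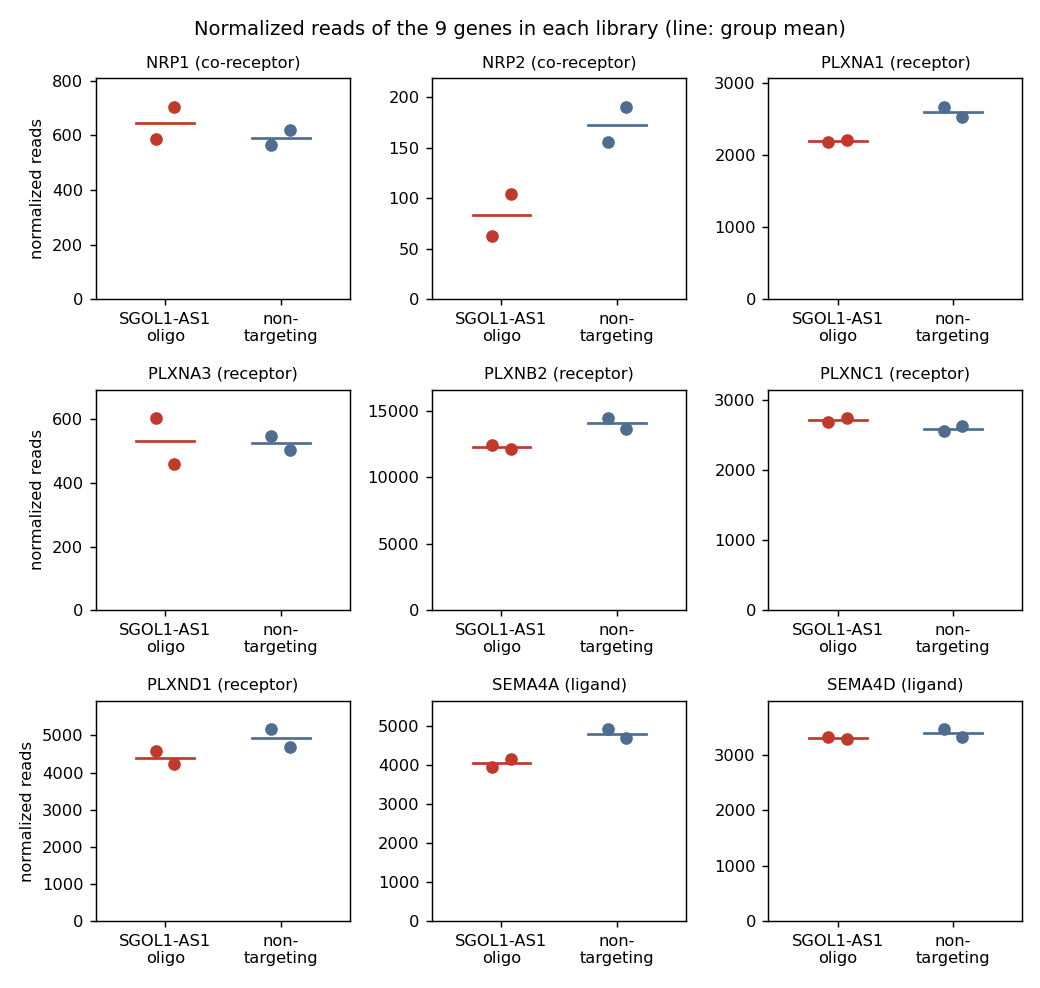
Normalized reads of each of the 9 genes in each library (points) with the group mean (line), knockdown on the left and non-targeting on the right, each axis starting at 0. Both knockdown points lie below both non-targeting points for NRP2, PLXNA1, PLXNB2, PLXND1, SEMA4A and SEMA4D, above them for PLXNC1, and overlap them for NRP1 and PLXNA3.

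Of the plexins, PLXNA1 and PLXNB2 were lower in the knockdown, PLXND1 less so, and PLXNA3 and PLXNC1 were not. PLXNA1 (ENSG00000114554, plus strand of chromosome 3, 126988594 to 127037392) pairs with neuropilins to receive class 3 semaphorins and, in mouse dendritic cells and osteoclasts, joins TREM2 and its adaptor DAP12. It had 2181 and 2214 normalized reads in the knockdown libraries and 2664 and 2528 in the non-targeting libraries. The groups were apart by more than the spread within either, with means of 2197 ± 23.3 in the knockdown and 2596 ± 96.2 in the non-targeting libraries (SD, n = 2 each) and a log2 fold change of -0.24 ± 0.06 (SE). PLXNB2 (ENSG00000196576, minus strand of chromosome 22, 50274979 to 50307627), a receptor of class 4 semaphorins, had 12409 and 12123 normalized reads in the knockdown libraries and 14412 and 13648 in the non-targeting libraries. Its knockdown values were both lower, by a log2 fold change of -0.19 ± 0.05 (SE), or 0.874 times the non-targeting mean.

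PLXND1 (ENSG00000004399, minus strand of chromosome 3, 129555175 to 129606818), best known as the endothelial receptor of SEMA3E, had 4569.7 and 4237 normalized reads in the knockdown libraries and 5159.8 and 4688 in the non-targeting libraries. The groups did not overlap, yet the nearest values of the 2 groups lay closer together than the libraries within either group. Its log2 fold change was -0.16 ± 0.06 (SE). PLXNC1 (ENSG00000136040, plus strand of chromosome 12, 94148723 to 94307675), the receptor of SEMA7A, had 2687 and 2734 normalized reads in the knockdown libraries, against 2549 and 2619 in the non-targeting libraries. It was the only one of the 9 with both knockdown values above both non-targeting values, at a log2 fold change of 0.07 ± 0.06 (SE). An antisense gene shares 222 exonic bases with PLXNC1 and had 56.6 and 47.9 normalized reads in the knockdown and 42.3 and 35.8 in the non-targeting libraries. The neighbour CEP83 shares 177 exonic bases and had 1433 and 1272 normalized reads in the knockdown and 1246 and 1185 in the non-targeting libraries. Reads of these stretches could belong to either gene.

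PLXNA3 (ENSG00000130827, plus strand of chromosome X, 154458281 to 154477779), a partner of NRP2 for SEMA3F, had 603 and 461 normalized reads in the knockdown libraries and 547 and 504 in the non-targeting libraries. One knockdown value lay above and the other below both non-targeting values. The means were 532 ± 101 in the knockdown and 526 ± 30.5 in the non-targeting libraries (SD, n = 2 each), and the log2 fold change was 0.00 ± 0.11 (SE), or -0.19 with knockdown library 1 left out and 0.20 with knockdown library 2 left out. LAGE3, on the opposite strand, shares 11 exonic bases with PLXNA3. PLXNA1 exceeded PLXNA3 per kilobase 3.87 and 5.14 times in the knockdown libraries, and 5.21 and 5.36 times in the non-targeting libraries.

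Of the membrane-bound ligands, SEMA4A was lower in the knockdown and SEMA4D was nearly level, at 0.974 times its non-targeting mean. SEMA4A (ENSG00000196189, plus strand of chromosome 1, 156147366 to 156177752) is made by dendritic cells and monocytes and acts on T cells. It had 3963 and 4173 normalized reads in the knockdown libraries and 4921 and 4691 in the non-targeting libraries. The groups were apart by more than the spread within either, at 4068 ± 149 in the knockdown and 4806 ± 163 in the non-targeting libraries (SD, n = 2 each), a log2 fold change of -0.24 ± 0.05 (SE). SEMA4D, also CD100 (ENSG00000187764, minus strand of chromosome 9, 89360787 to 89498130), signals through PLXNB1, PLXNB2 and, on immune cells, CD72. It had 3325 and 3291 normalized reads in the knockdown libraries and 3460.0 and 3333 in the non-targeting libraries, a log2 fold change of -0.04 ± 0.06 (SE) that turned to 0.0030 under quantile normalization and to 0.020 when library totals were equalized. Per kilobase SEMA4A exceeded SEMA4D 2.47 and 2.63 times in the knockdown libraries, and 2.95 and 2.92 times in the non-targeting libraries, so this within-library ratio was lower in both knockdown libraries.

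Of the 9 genes, NRP2, SEMA4A, PLXNA1 and PLXNB2 were among the genes called lower by limma (adjusted p under 0.05), where 3.4% of the 19398 tested genes were called lower. Of the 9, 0 were called higher, against 0.851% of tested genes. Both knockdown values lay below both non-targeting values in 6 of the 9, against 25.1% of tested genes, and above them in 1, against 21.6%, so that 7 of the 9 did not overlap, against 46.7%. Nothing is read from these counts, because the 9 genes were chosen with this contrast known. Their median log2 fold change was -0.16, and -0.03 after correction for GC content and length, against -0.01 over all tested genes without it. EdgeR placed 4 of the 9 among its lower calls (2.87% of genes) and 0 among its higher calls (0.82%). DESeq2 placed 3 among its lower calls (3.01%) and 0 among its higher calls (0.531%). Leaving out non-targeting library 1 gave 1 of the 9, with 334 lower calls over all 19398 genes, and leaving out non-targeting library 2 gave 2, with 454, against 660 when all libraries were used.

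Fold changes moved with the GC content of the transcript across the whole table. Over 18925 tested genes Pearson's r between GC percent and log2 fold change was -0.19, as a description of genes that share the same 4 libraries. Tested genes under 40% GC had a median log2 fold change of 0.03, and those of 60% and over had -0.10. PLXND1, PLXNB2 and PLXNA1 have longest transcripts of 63.5%, 63.1% and 61.6% GC, SEMA4A and PLXNA3 of 57.2% and 57.4%, SEMA4D and NRP2 of 52.4% and 50.4%, and PLXNC1 and NRP1 of 46.9% and 44.7%. Over the 9 genes r was -0.06. It was -0.86 over 8 once NRP2 was left out, a choice made with its value known. Neither value is a test, because the 9 genes were chosen with this contrast known.

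After each library was corrected for GC content and exonic length, the log2 fold changes were -0.03 for PLXND1, -0.06 for PLXNB2, -0.13 for PLXNA1 and -0.16 for SEMA4A, each nearer to 0 than before. NRP2 stood at -1.08 after the correction, NRP1 at 0.10, PLXNC1 at 0.07, PLXNA3 at 0.07 and SEMA4D at -0.02. With this correction 1 of the 9, NRP2, was among the lower calls, which took 3.4% of the 18925 genes with a GC value, and 0 were among its higher calls (1.21%). Among tested genes of 60% GC and over with a mean of at least 400 normalized reads (1212 genes, a minimum set after the values were seen), the median log2 fold change without the correction was -0.12 and the interquartile range ran from -0.18 to -0.06. PLXND1 lay inside that range, PLXNB2 just below it and PLXNA1 further below. Among the 1340 such genes between 55% and 60% GC the interquartile range ran from -0.14 to -0.02, with SEMA4A below it and PLXNA3 above it.

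**Figure D3:**
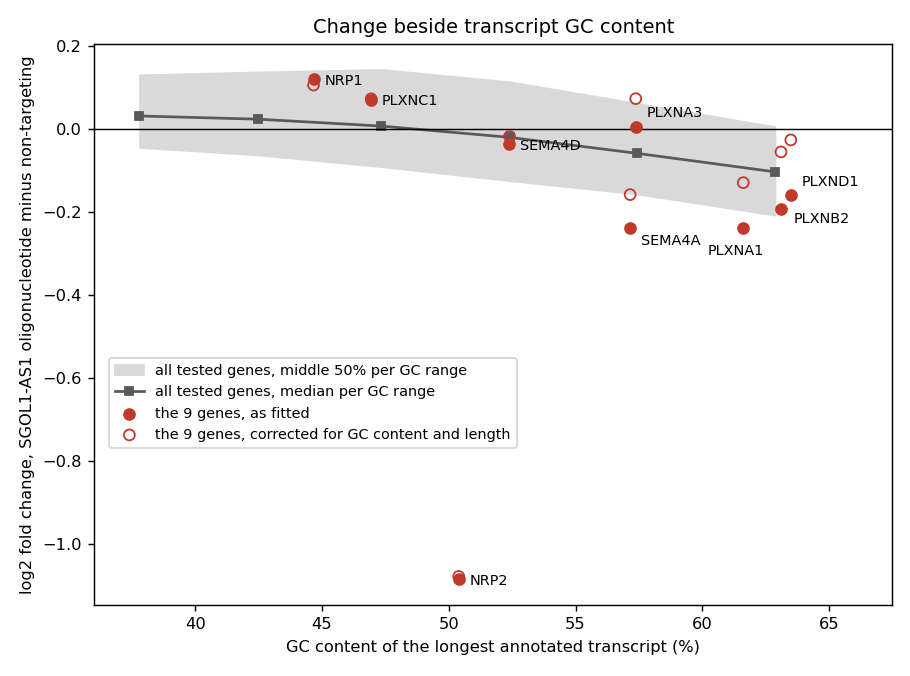
Log2 fold change (knockdown minus non-targeting) of the 9 genes against the GC percent of the longest annotated transcript, as fitted (filled) and with GC content and length corrected (open), over the median and interquartile range of all tested genes in 6 GC ranges. The median of all genes runs from 0.03 to -0.10 as GC content increases, and NRP2 lies at -1.09 and -1.08, far below it.

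RefSeq promoter windows (GRCh38.p14, 250 bases before to 50 after a transcript start) were given for 8 of the 9 genes, with 12 windows in all; NRP1 was not matched. The windows of PLXND1, PLXNA3 and PLXNA1 were 87.3%, 83.3% and 83.0% GC and that of NRP2 70.0%, against a median of 58.7% over 35116 windows, while that of SEMA4D was 52.3%. The part before the start is shown for 3 genes that were lower as fitted, NRP2, PLXNA1 and PLXNB2, and for PLXNC1, which was not. Capitals mark the GC box, GGGCGG, and the EGR motif, GCGNGGGCG, on either strand. SEMA4A, also called lower as fitted, is not shown. Its windows were 54.7% to 62.0% GC, and only the window of 54.7% held a GC box. The EGR motif can share bases with a GC box, as it does in PLXNA1.
NRP2, chr2:205682251-205682499, plus strand: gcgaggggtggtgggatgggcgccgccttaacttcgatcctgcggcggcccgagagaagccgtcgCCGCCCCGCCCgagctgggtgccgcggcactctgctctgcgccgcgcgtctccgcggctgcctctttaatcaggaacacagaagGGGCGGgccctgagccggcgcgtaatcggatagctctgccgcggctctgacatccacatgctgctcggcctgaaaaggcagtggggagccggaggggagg
PLXNA1, chr3:126982865-126983114, plus strand: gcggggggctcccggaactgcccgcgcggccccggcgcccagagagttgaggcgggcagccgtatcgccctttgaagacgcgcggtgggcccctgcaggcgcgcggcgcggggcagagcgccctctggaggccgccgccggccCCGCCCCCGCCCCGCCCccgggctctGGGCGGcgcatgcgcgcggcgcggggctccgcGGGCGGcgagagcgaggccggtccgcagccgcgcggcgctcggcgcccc
PLXNB2, chr22:50301670-50301919, minus strand: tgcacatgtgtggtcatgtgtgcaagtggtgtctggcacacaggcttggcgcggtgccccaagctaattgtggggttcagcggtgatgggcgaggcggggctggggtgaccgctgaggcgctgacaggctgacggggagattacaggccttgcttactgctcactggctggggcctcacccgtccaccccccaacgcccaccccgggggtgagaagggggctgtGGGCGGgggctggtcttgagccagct
PLXNC1, chr12:94148327-94148576, plus strand: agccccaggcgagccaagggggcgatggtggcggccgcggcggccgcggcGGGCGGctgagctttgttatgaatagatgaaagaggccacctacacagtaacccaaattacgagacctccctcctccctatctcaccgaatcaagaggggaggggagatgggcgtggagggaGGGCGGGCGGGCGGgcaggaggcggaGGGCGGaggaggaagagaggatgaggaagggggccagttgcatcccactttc

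These stretches hold 3 GC boxes for NRP2, 5 for PLXNA1, 1 for PLXNB2 and 5 for PLXNC1, counting overlapping matches, and 1 EGR match for PLXNA1. The stretches of NRP2 and PLXNB2 lie inside the span that GENCODE gives the gene and those of PLXNA1 and PLXNC1 before it. Over whole windows, a GC box was found in 9 of the 12, at least 1 for each of the 8 genes, against 45.0% of all windows, and the EGR motif in PLXNA1, PLXNA3 and PLXND1, against 9.43%. Thus the EGR motif was found in 1 gene called lower and in 2 that were not. An AP-1 motif, TGANTCA, was in 1 window of PLXNC1 (7.71% of all windows), as was GAGGAAGT, the PU.1 motif (2.59%). That window, chr12:94262369-94262668, lies inside the gene and is not the one shown. Both windows of PLXNC1 held the interferon response motif (3.57%). An E-box, CACGTG, was in the window of SEMA4D (7.26%). The NF-kB motif (1.91%) and TATAAA (11.5%) were in none of the 12 windows. A match describes letters and is no evidence of binding.

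Of 22 other plexin and semaphorin genes listed, 20 were in the table and 17 were tested. SEMA7A, the ligand of PLXNC1, was among those not in the table, so it has no value here. Limma called 0 lower (against 3.4% of all tested genes) and 0 higher (against 0.851%), as did edgeR and DESeq2. At an unadjusted p under 0.05, 1 was lower and 1 higher, against 2139 and 1197 of the 19398 tested genes. With 17 genes, 0 calls is near these shares and does not set the family apart. Their median log2 fold change was -0.09, against -0.01 over all tested genes. After the GC content and length correction it was 0.004, against -0.0003. The most abundant was SEMA4C, a class 4 ligand of PLXNB2, at 1120.1 and 1170.1 normalized reads in the knockdown libraries and 1176 and 1185 in the non-targeting libraries. SEMA3A, the class 3 ligand that binds NRP1 and PLXNA1, had 972 and 1026 normalized reads in the knockdown libraries and 818 and 928 in the non-targeting libraries (log2 fold change by limma 0.20 ± 0.08 SE, adjusted p = 0.186). Both its knockdown values were higher, though the gap was smaller than the spread of the non-targeting libraries. SEMA6B was at -0.17 (limma, adjusted p = 0.33) and PLXNB1, the best-known receptor of SEMA4D, at 0.07 (adjusted p = 0.782).

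Low genes of the family varied more. SEMA3E, the ligand of PLXND1, had 28.8 and 9.12 normalized reads in the knockdown libraries and 6.72 and 13.2 in the non-targeting libraries, so the groups overlapped despite a log2 fold change of 0.73 ± 0.49 (SE). SEMA3B was at -0.39 ± 0.37 and SEMA3D at -0.30 ± 0.18 on the log2 scale (limma, adjusted p = 0.649 and 0.41). The plot of fold changes by gene shows wider errors for SEMA3E and SEMA3B than for any of the 9.

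**Figure D4:**
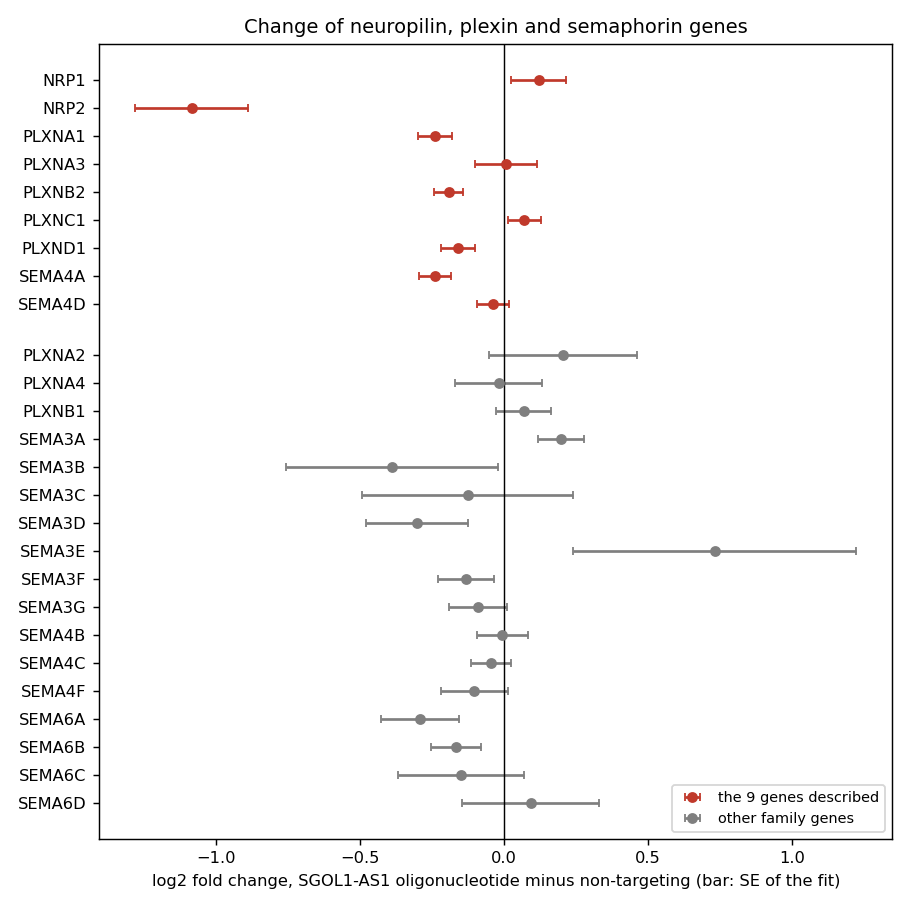
Log2 fold change (knockdown minus non-targeting, points) with the standard error of the fit (bars) for the 9 genes (red) and the 17 other tested plexin and semaphorin genes (grey). NRP2 lies at -1.09, and SEMA3E, at 0.73, has an error of 0.49.

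Genes that work beside these receptors were mostly not called. Of 56 listed co-receptors, adaptors and intracellular effectors, 51 were tested. Limma called 2 lower (3.92%, against 3.4% of all genes) and 1 higher (1.96%, against 0.851%). At an unadjusted p under 0.05 by limma, 15 were lower and 4 higher, against 2139 and 1197 of the 19398 tested genes. Both knockdown values lay below both non-targeting values in 26, against 25.1% of tested genes, and above them in 9, against 21.6%. The list was chosen with earlier results of these data known. The median log2 fold change was -0.07, and -0.05 after the GC content and length correction. DPYSL2, also CRMP2, a microtubule-binding mediator of SEMA3A signalling, had 8993 and 9749 normalized reads in the knockdown libraries and 11320.2 and 11821 in the non-targeting libraries (log2 fold change by limma -0.31 ± 0.05 SE, adjusted p = 0.000954). TYROBP, which encodes the adaptor DAP12, had 2554 and 2486 normalized reads in the knockdown libraries and 3115 and 2828 in the non-targeting libraries (log2 fold change by limma -0.24 ± 0.06 SE, adjusted p = 0.026). TREM2, its partner, named after its value was seen, was at 0.15 (limma, adjusted p = 0.208). ITGA1, an integrin chain that with ITGB1 receives SEMA7A, rose to 518 and 501 normalized reads in the knockdown libraries, against 362 and 414 in the non-targeting libraries (log2 fold change by limma 0.39 ± 0.10 SE, adjusted p = 0.021). The calls of TYROBP and ITGA1 ended without non-targeting library 1 (adjusted p = 0.478 and 0.334) and with DESeq2 (0.0718 and 0.0871), and that of TYROBP also under quantile normalization (0.101) and under equal library totals (0.125).

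The VEGF system shares the neuropilins with the semaphorins, and 11 of its 12 listed genes were tested. VEGFA, a ligand of NRP1, fell to 2030.2 and 2315 normalized reads in the knockdown libraries, against 2771 and 2829 in the non-targeting libraries (log2 fold change by limma -0.37 ± 0.06 SE, adjusted p = 0.00118). HGF, the ligand of MET and a partner of neuropilins, rose to 4251 and 3945 normalized reads, against 3324 and 3542 in the non-targeting libraries (log2 fold change by limma 0.26 ± 0.06 SE, adjusted p = 0.011). Without non-targeting library 1 the call of HGF ended (adjusted p = 0.224). These were the only calls on the list, 9.09% in each direction, against 3.4% of all tested genes lower and 0.851% higher. The median log2 fold change of the list was -0.16, before and after the GC content and length correction. VEGFC, the VEGF ligand of NRP2, named after its value was seen, was at -0.62 ± 0.22 (limma, adjusted p = 0.13), with 41.2 and 44.5 normalized reads in the knockdown libraries and 63.4 and 69.6 in the non-targeting libraries.

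The genes whose values most resembled those of NRP2 were sought among 13937 genes with a symbol and a mean of at least 50, by the Euclidean distance of centred log2 values over the 4 libraries. The nearest were ISG20 (distance 0.13), IL4I1 (0.22), HAVCR2 (0.26), CXCL10 (0.28) and CD209 (0.33). ISG20 had 460.3 and 677 normalized reads in the knockdown libraries and 1038 and 1270.1 in the non-targeting libraries. Like NRP2, ISG20 was lowest in knockdown library 1 and highest in non-targeting library 2. With 4 libraries, likeness of this kind describes the 4 values and no more.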

How the data were processed

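Per the labels' protocols, total RNA came from a Qiagen RNeasy Plus Mini kit and libraries from NEBNext Ultra II. STAR 2.5.1b, DESeq2 and GRCh38 appear, without their roles, per the submitters' processing notes, while counter and strand setting are not given there. Each deposited value is a size-factor-scaled signal: the authors' read count over the factor of its library. Every value was within 0.001 of a whole number of reads, and library totals were 41435922 to 51851314 reads. The table holds no gene under 2 reads in knockdown library 1. It holds 2375 such genes in knockdown library 2 and 2132 and 2092 in the non-targeting libraries. Genes it omits are not analysed here, and their absence does not show that they were not expressed. Separate cultures are not stated for the libraries of a group, so p-values measure only how far these samples differ, and that may be technical. No library was a copy of another: the chi-square per degree of freedom was 4.92 between non-targeting and 5.47 between knockdown libraries.

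Log2(value + 1) was tested by limma 3.58.1 (R 4.3.3, trended empirical Bayes) in the 19398 genes averaging 10 or more, and p-values were adjusted over these genes by Benjamini-Hochberg at a threshold of 0.05. This scale understates changes of low genes. Standard errors of the limma fits draw the variance in part from other genes, so they are not the spread of 1 gene alone. EdgeR 4.0.16 and DESeq2 1.42.0 were run on the recovered reads as alternatives. The other alternatives were other filters, pseudocounts, scalings, empirical Bayes settings, each library left out, and a spline correction of each library for GC content (longest transcript) and exonic length from GENCODE 29. Symbols matched 26579 genes and GENCODE positions 26077. The fit was checked on simulated counts, which held no trend with GC content, so the check does not cover the shift seen here. The 9 genes and all lists were chosen with earlier results of these data known. Named genes were the 9, up to 5 called genes with the smallest p of each list, the 4 highest and 3 most changed of the other family genes, the 5 nearest in pattern to the most changed of the 9, and the most abundant gene of each marker list; any other is marked or overlaps one of the 9.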

Additional observations from a re-analysis of the deposited data

How the results depend on the processing

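Of the 9 genes, the count called lower was 1 after quantile normalization, 1 with the same total in every library and 1 after the GC content and length correction, and 0 with no mean-variance trend; it ran from 1 to 5 with 1 library left out. With no trend, limma called 0 genes in the table and in each list, with 2337 genes at an unadjusted p under 0.05; edgeR's calls were 556 lower and 159 higher. Over all genes, lower calls numbered 660, against 334 after quantile normalization, 293 with the same total and 380 by DESeq2, and 334 to 960 with 1 library left out. Higher calls numbered 165, against 290 with the same median and 67 by DESeq2, and 87 to 309 with 1 library left out. Receptor and effector genes called lower were 1 after quantile normalization, 1 with the same total, 1 by DESeq2, 4 with robust empirical Bayes, 5 after the GC content and length correction and 2 to 6 with 1 library left out, and those called higher 0 by DESeq2 and 0 to 1. VEGF genes called lower were 1 to 2 and called higher 0 to 1 with 1 library left out. Other guidance genes called lower were 1 with the same total, 1 by DESeq2, 5 with robust empirical Bayes and 2 to 4 with 1 library left out.

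Signs turned for NRP1 (-0.012 to 0.25 over the fits with 1 library left out), PLXNA3 (-0.19 to 0.20, and -0.054 when non-targeting library 2 was left out), PLXNB1 (-0.079 to 0.22) and SEMA3E (-0.047 to 1.51). They also turned for SEMA4D under quantile normalization (0.0030), for SEMA4D and SEMA4C under equal library totals (0.020 and 0.013), and for SEMA4C and SEMA6B under the GC correction (0.068 and 0.021). The log2 fold changes of NRP2, PLXNA1, PLXNB2, SEMA4A and PLXND1 stayed below 0 in all 17 alternatives and that of PLXNC1 above 0. The groups of these genes do not overlap, so leaving out 1 library could not turn the sign. Other filters and empirical Bayes settings do not change the fold change. The cause of the shifts in counts and signs was not tested. No paired analysis was possible because the columns of the 2 groups share fewer than 2 replicate numbers.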

Other observations

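Guidance families outside the semaphorins were also measured. Of 34 listed ephrin, Eph, netrin, Slit, Robo and repulsive guidance genes, 24 were tested, and limma called 3 lower and 0 higher (12.5%, against 3.4% of all genes called lower), with 4 called lower at most and 2 at least when 1 library was left out. The median log2 fold change of the list was -0.17, and -0.07 after the GC content and length correction. RGMA, a membrane-anchored ligand of neogenin, had 169 and 169.9 normalized reads in the knockdown libraries and 314 and 304 in the non-targeting libraries (log2 fold change by limma -0.86 ± 0.12 SE, adjusted p = 0.000115; -0.81 after the GC correction). EPHB2, a receptor of ephrin-B ligands, had 146 and 209 normalized reads in the knockdown libraries and 275 and 262 in the non-targeting libraries (log2 fold change by limma -0.62 ± 0.15 SE, adjusted p = 0.0145). Without knockdown library 1 it was at -0.36 (adjusted p = 0.134), and its call also ended after quantile normalization (0.053), with the same total (0.0594) and with DESeq2 (0.0787). NTN1, which encodes the secreted cue netrin-1, had 88.2 and 94.7 normalized reads in the knockdown libraries and 133 and 148 in the non-targeting libraries (log2 fold change by limma -0.61 ± 0.16 SE, adjusted p = 0.0309), and lost its call when any of 3 libraries was left out, with adjusted p from 0.0597 to 0.23, after the GC correction (0.111), with the same total (0.0756) and with DESeq2 (0.212).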
